A study of Mus musculus with 38 samples.

Results

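The mouse genes *Fhit*, *Spidr*, *Tm4sf1*, *Nol4l*, *Spata16* and *Rpf1* were followed through 14 lists of histone-marked intervals from epidermal stem cells (EpdSCs) in which the transcription factor SOX9 had been switched on. These are 6 of 21938 protein-coding genes in the annotation. They were selected on measured values: each holds, or lies nearest to, 1 of the 5 best ranked lasting gains of its mark. A lasting gain is an interval called at 2 weeks of induction (W2), missing from the uninduced list (D0) and present again at 6 and 12 weeks (W6 and W12), and these were ranked by their strength at W2, and the 7 that chose the genes are called lead intervals. The W2 strength of a lead interval and its D0, W6 and W12 calls are therefore descriptions of how the genes were found. Its call at 1 week (W1), the other histone mark and the culture lists were not used in the choice. For every gene, all intervals that overlapped the gene body or its 50 kb flanks by at least 1 bp were taken, so that the 6 windows together covered 2.97 Mb.

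The skin samples were MINT-ChIP libraries, in which barcoded chromatin is pooled before immunoprecipitation, from male K14rtTA; TRE-myc-Sox9 mice. For W1, W2 and W6, doxycycline (DOX) was given from postnatal day 21 onwards, by injection and then in the feed, and D0 cells had the same genotype without induction. The *Krt14* promoter drives the activator in the basal layer of the whole skin epithelium, hair follicles included, and EpdSCs were sorted from back skin as CD31/45/117/140a-negative, CD49f-high, CD34-negative and Ly6A-high cells. The W12 cells came from skin of newborn pups grafted onto immunodeficient female hosts, which received DOX after the grafts had healed for 21 days. W12 thus differs from the earlier times by more than its duration. Of the W2 replicates, 1 was sequenced in the same libraries as W12. A lasting gain is called in both of these lists, and the part of the shared libraries in that was not tested. Later lists also came from older skin, so that age and duration cannot be told apart. The culture libraries were primary Krt14-rtTA EpdSCs that carried a lentiviral, DOX-inducible MYC-SOX9, either wild type (WT), without its DNA-binding HMG domain (ΔHMG) or without its transactivation domain (ΔTA), with the WT cells also left without DOX. The 38 samples split into 12 for each of H3K4me1, H3K27ac and total H3 in skin, and a further 2 for H3K4me1 in culture. Chromatin was cut with the nuclease MNase at a high and at a low level, and each level is a separate sample. The sample counts are therefore not counts of replicates, and at D0 and W1 each sample holds both replicates. The authors merged replicates before calling intervals, which left 1 list for each mark and time point. No spread between replicates can be given for any value here, so no difference between lists carries a test.

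H3K4me1 is placed by MLL3 and MLL4 at enhancers, both those that are merely primed and those that are active. H3K27ac is placed by p300 and CBP and marks enhancers and promoters in use. A region that is to become an enhancer commonly carries H3K4me1 before H3K27ac, and factors able to bind closed chromatin can start that sequence. SOX9 binds DNA through its HMG box at short A and T rich sites and is known in skin for the fate of hair follicle stem cells.

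The 6 genes have unlike known roles. *Fhit* encodes a histidine triad hydrolase of dinucleoside polyphosphates and is a very long gene that spans a common fragile site in humans. *Spidr* encodes a scaffold protein of homologous recombination. *Tm4sf1* encodes a tetraspan-like membrane protein of the L6 family that is abundant in endothelium and many carcinomas. *Nol4l* encodes a nuclear protein of poorly known function, *Spata16* a testis protein needed for the acrosome, and *Rpf1* a Brix domain protein of large ribosomal subunit assembly. They lie on 4 chromosomes of mm10 (GRCm38), and their gene bodies run from 15.47 kb (*Rpf1*) to 1612 kb (*Fhit*).

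The lists held between 69439 and 87287 intervals for H3K4me1 of skin, between 29081 and 33985 for H3K27ac and between 110589 and 123338 for culture. Depth was unequal: the genome-wide background recovered from the H3K27ac folds ranged from 0.299 fragments at W1 to 0.677 at W6, with 0.501, 0.425 and 0.411 for D0, W2 and W12. Markers of the labelled cell type were present, and the starts of *Krt5*, *Krt14*, *Trp63*, *Itga6* and *Col17a1* had an H3K27ac peak in every list. None of 3 T cell and Langerhans markers and none of 3 fibroblast markers did in any list. Of 4 melanocyte markers, 1 had a peak at D0, 2 at W1, 1 at W2 and 0 at W6 and W12. Of 2 endothelial markers, *Cdh5* had none in any list and *Pecam1* had one at W6 and W12 but not before.

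The 4 H3K27ac lead peaks lay in *Spidr*, in *Fhit*, upstream of *Rpf1* and upstream of *Tm4sf1*. The *Spidr* peak (chr16:15983288-15986019) sat in intron 8 of 19 of the longest coding transcript, 161 kb into the gene. The *Fhit* peak (chr14:9765418-9767139) sat in intron 7 of 9, 1395 kb from the start. The *Rpf1* peak (chr3:146533516-146536651) was intergenic, 12.1 kb upstream of *Rpf1*, whose start was the nearest annotated one. The *Tm4sf1* peak (chr3:57303737-57305680) was also intergenic, 1.75 kb upstream of *Tm4sf1* and likewise nearest to it. None of the 4 touched an exon of its gene.

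To show the DNA under these peaks, 300 bp centred on each W2 summit were read from RefSeq GRCm38.p6 and are printed 5′ to 3′ on the forward strand. All 4 are in lower case because none holds a match to the motifs searched, on either strand: the strings ACAAAG and, as a second form, ACAATG for SOX factors, the string TGTGGT for RUNX factors, the string TGANTCA for AP1 and the string AGATAA for GATA factors. In capitals anywhere below are matches to these motifs.
*Spidr* summit, chr16:15984728-15985027: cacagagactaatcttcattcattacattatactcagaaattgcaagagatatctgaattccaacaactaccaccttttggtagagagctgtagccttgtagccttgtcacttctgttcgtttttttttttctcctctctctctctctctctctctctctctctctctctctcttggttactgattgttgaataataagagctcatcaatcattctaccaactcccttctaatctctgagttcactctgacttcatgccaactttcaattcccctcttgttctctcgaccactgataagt
*Fhit* summit, chr14:9766525-9766824: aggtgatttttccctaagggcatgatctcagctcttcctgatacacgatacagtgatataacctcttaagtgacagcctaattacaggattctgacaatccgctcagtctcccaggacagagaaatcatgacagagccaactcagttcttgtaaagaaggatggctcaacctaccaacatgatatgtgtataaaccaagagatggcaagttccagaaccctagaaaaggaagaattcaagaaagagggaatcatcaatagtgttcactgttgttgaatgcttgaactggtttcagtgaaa
*Rpf1* summit, chr3:146534725-146535024: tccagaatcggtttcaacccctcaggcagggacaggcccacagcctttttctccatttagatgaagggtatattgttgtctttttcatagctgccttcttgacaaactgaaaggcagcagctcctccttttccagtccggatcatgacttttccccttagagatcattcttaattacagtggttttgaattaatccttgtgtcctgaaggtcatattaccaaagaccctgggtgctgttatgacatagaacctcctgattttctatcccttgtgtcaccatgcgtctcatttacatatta
*Tm4sf1* summit, chr3:57304267-57304566: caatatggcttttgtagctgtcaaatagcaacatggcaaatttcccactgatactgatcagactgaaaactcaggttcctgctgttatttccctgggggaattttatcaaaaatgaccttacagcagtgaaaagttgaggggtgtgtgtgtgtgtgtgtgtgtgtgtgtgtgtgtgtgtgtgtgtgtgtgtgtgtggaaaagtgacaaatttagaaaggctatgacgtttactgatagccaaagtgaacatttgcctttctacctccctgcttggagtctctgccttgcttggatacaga

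The GC share of these windows was 39.7% at *Spidr*, 41.3% at *Fhit* and 43.0% at both *Rpf1* and *Tm4sf1*. A run of alternating C and T is visible at *Spidr* and of G and T at *Tm4sf1*, where 23.0% and 23.7% of the bases are marked as repeats. The *Rpf1* window held no repeat. Among all 29081 W2 peaks, 31.2% held a SOX match within the same 300 bp, 18.02% a RUNX match, 9.34% an AP1 match and 12.1% a GATA match. Among the 1768 lasting H3K27ac gains the shares were 39.8%, 21.7%, 12.7% and 14.6%, and among the 10186 W2 peaks that were in all 5 lists they were 25.2%, 15.3%, 7.46% and 8.63%. A missing match says only that these letters are not in these windows.

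SOX matches did occur elsewhere under the same peaks, which were searched over their full width after the summit windows had been seen. There the *Tm4sf1* peak held 5 and the *Rpf1* peak 5, against 3 at *Spidr* and 1 at *Fhit*, which is 2.57, 1.59, 1.10 and 0.581 matches per kb. All W2 peaks together had 1.36 SOX matches per kb and lasting gains 1.87. For each of the 4 the match closest to the summit is shown with 100 bp of context, because it is the nearest candidate letter string to the strongest signal. At *Tm4sf1* an AP1 match stood in the same stretch.
*Spidr*, chr16:15984490-15984589: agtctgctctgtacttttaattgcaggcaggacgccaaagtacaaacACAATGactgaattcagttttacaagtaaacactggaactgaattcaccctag
*Fhit*, chr14:9766203-9766302: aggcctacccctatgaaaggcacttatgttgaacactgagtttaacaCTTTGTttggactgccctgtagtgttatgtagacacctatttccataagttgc
*Rpf1*, chr3:146535112-146535211: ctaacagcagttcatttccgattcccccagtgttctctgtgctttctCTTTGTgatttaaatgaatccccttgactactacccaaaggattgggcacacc
*Tm4sf1*, chr3:57304641-57304740: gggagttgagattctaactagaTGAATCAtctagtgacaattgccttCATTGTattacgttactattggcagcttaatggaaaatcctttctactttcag
Counted from the summit along the forward strand, with negative values before it, the matches began at -341 bp in *Spidr*, -425 bp in *Fhit*, 284 bp at *Rpf1* and 271 bp at *Tm4sf1*. A match is a string of letters and was not compared with SOX9 binding here.

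At *Spidr* the fold enrichment of H3K27ac over background was 13.1 in the W1 list, 30.9 in W2, 16.1 in W6 and 9.92 in W12, with no peak in D0. The number of fragments at the summit that these folds stand for was 16, 43, 26 and 13, with exact 95% Poisson intervals of 9.15 to 26.0, 31.1 to 57.9, 16.98 to 38.1 and 6.92 to 22.2. It ranked 84 of 29081 peaks at W2. The W2 value was the highest of the 4, and W2 rank is what the peak was chosen by.

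The *Fhit* peak had folds of 10.8, 24.6, 6.56 and 7.79 in the same 4 lists, from 13, 34, 10 and 10 fragments. It ranked 274 at W2, within the upper 0.942% of the list, and 15414 of 30516 at W6, near the middle. The called widths in that order were 2054, 1722, 945 and 904 bp.

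The *Rpf1* peak had folds of 16.9, 23.2, 12.5 and 11.3 from W1 to W12, from 21, 32, 20 and 15 fragments. It was the strongest of the 4 at W1, where it ranked 614 of 32544 peaks. Its W1 and W2 fragment counts have overlapping intervals of 12.999 to 32.1 and 21.9 to 45.2, although the background at W1 was lower. Divided by the background of their list, the fragments were 70.3 at W1 and 75.3 at W2, closer together than the folds.

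The *Tm4sf1* peak had folds of 7.70, 21.8, 8.35 and 12.8 from W1 to W12, from 9, 30, 13 and 17 fragments. Like the *Fhit* peak, it had a higher fold at W12 than at W6, while the *Spidr* and *Rpf1* folds were lower at W12. MACS2 adds 1 to fragments and background, so folds of lists of unlike depth are not on one scale. Fragments divided by background were 19.2 at W6 and 41.3 at W12 for *Tm4sf1*, and 14.8 and 24.3 for *Fhit*. They were 29.6 and 36.5 for *Rpf1* and 38.4 and 31.6 for *Spidr*, which alone was lower at W12. At W12 the called *Tm4sf1* peak was 319 bp wide and covered 16.4% of the W2 interval. Of all lasting H3K27ac gains 7.13% kept a smaller share, and their median was 49.7%. *Tm4sf1* is a gene of endothelium as well, and the start of *Pecam1* had a peak at W6 and W12 although CD31-positive cells were sorted out. The *Tm4sf1* peak was already called at W1 and W2, when neither *Pecam1* nor *Cdh5* had one, and the part of endothelial cells in its later values was not tested.

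**Figure D1:**
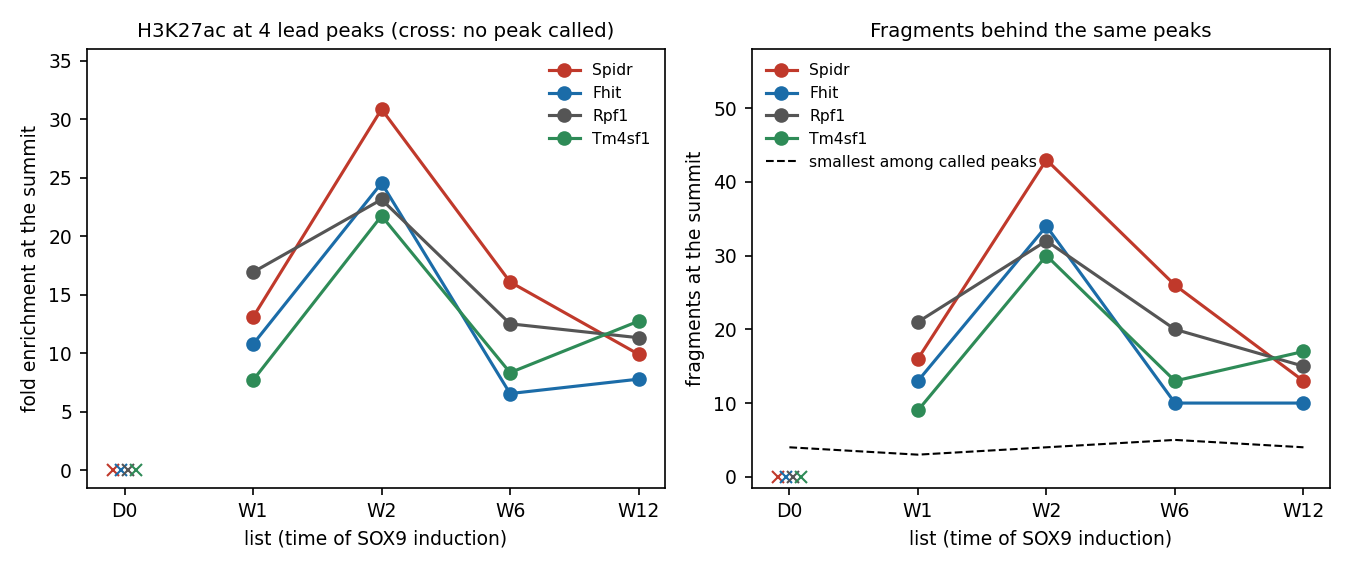
H3K27ac at the 4 lead peaks by list, as fold enrichment at the summit (left) and as the fragments behind it (right), with crosses where no peak was called and a dashed line for the smallest fragment count among all called peaks of a list. All 4 lines are highest at W2, at 30 to 43 fragments.

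The values that chose these 4 peaks have neighbours on both sides of the limit. The *Tm4sf1* peak, the last to enter, had a score of 411 and a fold of 21.8. The next lasting gains had a score of 393 and a fold of 21.1, and lay on chromosome 8 in no window of the 6 genes. At D0 the smallest fragment count among called peaks was 4, so that a count of fewer fragments at a lead peak would not appear in that list. Absence at D0 therefore means not detected at that depth.

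All 4 H3K27ac lead peaks were already called at W1, a list that played no part in the choice. Genome-wide 61.8% of the lasting H3K27ac gains were (exact 95% Clopper-Pearson interval 59.5 to 64.0, for counting error only, as for all intervals of shares here). With 4 peaks this count is a description. The 4 were the strongest lasting gains at W2, so the share is not from peaks of like strength. Across the 1768 lasting gains the median fold was 5.39 among those called at W1, and 6.32, 6.56 and 5.67 in the 3 later lists, so that the 4 lead peaks were above the median in each of these lists, except *Fhit* at W6, which was equal to it.

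All 4 peaks overlapped an H3K4me1 interval at D0, as 92.9% of all lasting H3K27ac gains did, with 97.4% at W1 and 98.5% at W2. The D0 intervals covered 100% of the *Fhit* and *Tm4sf1* peaks, 87.8% of the *Spidr* peak and 51.0% of the *Rpf1* peak. With the lower-scored part of each list below its median left out the count was 2 of 4, and with lists shortened to the shortest of their mark it was 3. The intervals differed in width and rank. At *Rpf1* the D0 interval was 1600 bp wide and ranked at 92.6% of list length, near the end, and the later intervals over the same peak were 6400, 9200, 6800 and 7600 bp wide. At *Tm4sf1* the widths from D0 to W12 were 3000, 6400, 5800, 5400 and 5000 bp, with the rank moving from 70.3% of the list at D0 to 8.92% at W1. At *Spidr* they were 2400, 5400, 4400, 3800 and 3000 bp, with ranks of 27.6% at D0 and 11.98% at W1. At *Fhit* they were 4400, 6000, 4200, 4000 and 6000 bp, with ranks of 41.2% and 14.2%.

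In all 4 places the H3K4me1 interval was wider and better ranked at W1 than at D0. Over all lasting H3K27ac gains the median width went from 5400 bp at D0 to 6400 bp at W1 and 7400 bp at W2, and the median rank from 15.3% to 10.5% and 8.26% of the list. The 4 lead peaks thus started from narrower and lower ranked H3K4me1 than the typical lasting gain. An H3K4me1 rank of a list compares intervals within that list only.

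**Figure D2:**
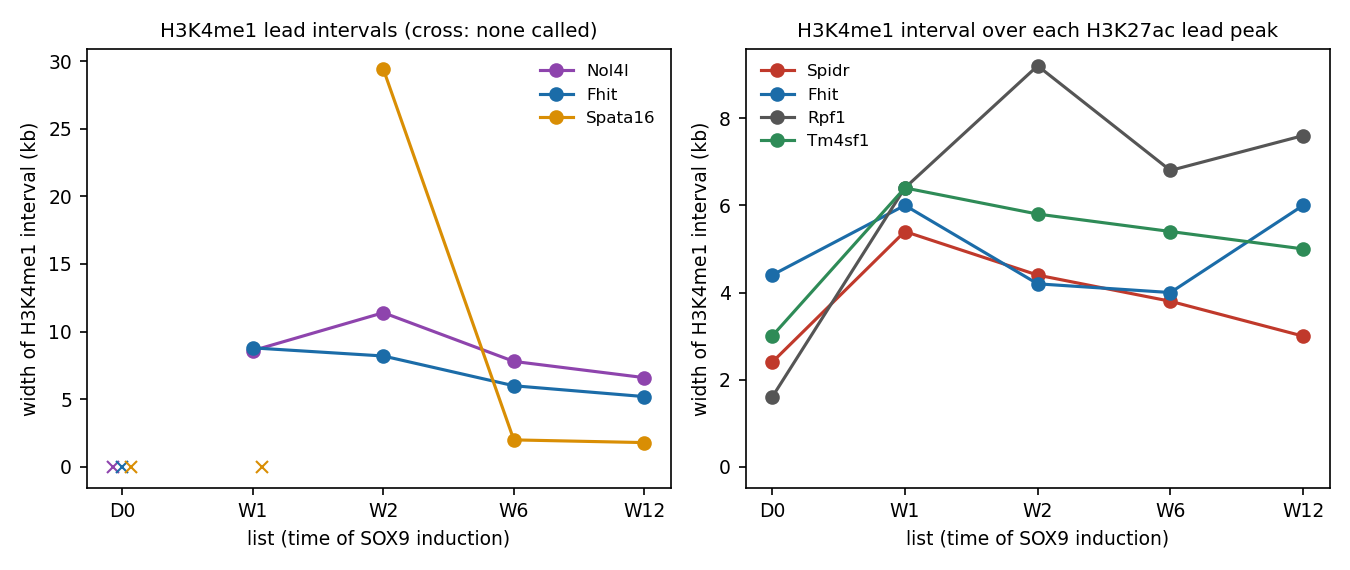
Width (axis in kb) of the best ranked H3K4me1 interval at the 3 H3K4me1 lead intervals (left) and over the 4 H3K27ac lead peaks (right), by list, with crosses where none was called. *Spata16* has the widest, 29400 bp at W2, and all 4 lines on the right are higher at W1 than at D0.

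The 3 H3K4me1 lead intervals lay inside *Nol4l*, *Fhit* and *Spata16*. The *Nol4l* interval (chr2:153420601-153432000) covered exon 6 of 11 and the introns beside it, 98.0 kb from the start. The *Fhit* interval (chr14:9958401-9966600) was within intron 5 of 9, 1195 kb from the start and apart from the H3K27ac lead peak of the same gene. The *Spata16* interval (chr3:26908801-26938200) spanned exons 7 to 10 of 11. Their p-values at W2 were 9.89e-223, 1.29e-212 and 3.11e-182, which made them 3 of the 5 best lasting gains of the mark. In the whole W2 list they ranked 2622, 2843 and 3722 of 73415. The other 2 of those 5 were intergenic, and the next in order, in *Rnf150*, had 2.07e-167.

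At *Nol4l* the interval measured 8600, 11400, 7800 and 6600 bp from W1 to W12. At *Fhit* it measured 8800, 8200, 6000 and 5200 bp. The *Fhit* interval was thus widest at W1 and the *Nol4l* interval at W2. Of the W2 bases 68.4% were still covered at W6 and 57.9% at W12 in *Nol4l*, and 63.4% at both times in *Fhit*. The medians over all 3669 lasting H3K4me1 gains were 81.8% at W6 and 80% at W12. In width the *Nol4l* interval was exceeded by 10 of the lasting gains and the *Fhit* interval by 64.

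The *Spata16* interval had another course. At 29400 bp it was the widest of all 3669 lasting H3K4me1 gains and was exceeded by 219 of 73415 intervals of the W2 list. It had no counterpart at W1, when the whole *Spata16* window was without H3K4me1. At W6 the intervals inside it covered 16.3% of its bases, the best ranked of them 2000 bp wide, and at W12 13.6%, the best ranked of them 1800 bp wide. Of all lasting gains, 0.899% kept a smaller share at W6 and 0.518% at W12. An overlap of 1 bp was enough to count as lasting, and most of the width of this interval was called at W2 alone.

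Across the genome 40.7% of lasting H3K4me1 gains were called at W1 (39.1 to 42.3), beside 2 of these 3. H3K27ac was absent from all 3 at D0, as it was from all but 0.572% of the lasting H3K4me1 gains. At W1 2 of the 3 overlapped an H3K27ac peak, where 5.12% of all lasting H3K4me1 gains did, and at W2 all 3 did, where 11.1% did. Overlap needed only 1 bp, and the lead intervals were 8200 to 29400 bp wide, beside a median of 2400 bp for lasting gains. The shares in this paragraph are thus not from intervals of like width or strength, and nothing is read from the excess. In *Fhit* the best H3K27ac peak inside the lead interval had folds of 10.01, 9.12, 3.58 and 6.38 from W1 to W12, from 12, 12, 5 and 8 fragments. The W6 peak, 358 bp wide, did not overlap the W2 peak, so that these values do not follow a single peak. In *Nol4l* the best peaks inside the interval had folds of 6.93 at W1, 7.02 at W2 and 7.75 at W6, with no peak at W12. They came from 8, 9 and 12 fragments. Divided by the background of their list these were 26.8, 21.2 and 17.7, the opposite order to the folds. In *Spata16* a peak of 438 bp was called at W2 alone, with a fold of 8.42 from 11 fragments.

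The DNA at the W2 H3K27ac summit inside each H3K4me1 lead interval is shown because these 3 small peaks are where the H3K4me1 lead intervals also carried the active mark. They were added after the lists had been inspected.
*Fhit* summit, chr14:9960223-9960522: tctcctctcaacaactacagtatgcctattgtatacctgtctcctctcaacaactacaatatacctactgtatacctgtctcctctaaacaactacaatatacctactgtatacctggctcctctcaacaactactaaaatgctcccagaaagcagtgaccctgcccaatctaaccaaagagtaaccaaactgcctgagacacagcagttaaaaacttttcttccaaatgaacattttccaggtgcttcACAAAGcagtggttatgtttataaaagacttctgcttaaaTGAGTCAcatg
*Nol4l* summit, chr2:153424885-153425184: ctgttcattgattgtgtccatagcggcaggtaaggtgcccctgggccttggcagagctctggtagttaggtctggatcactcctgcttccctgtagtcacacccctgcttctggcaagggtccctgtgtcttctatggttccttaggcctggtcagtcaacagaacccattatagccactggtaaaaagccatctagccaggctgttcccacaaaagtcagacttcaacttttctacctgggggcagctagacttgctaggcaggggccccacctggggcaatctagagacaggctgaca
*Spata16* summit, chr3:26921251-26921550: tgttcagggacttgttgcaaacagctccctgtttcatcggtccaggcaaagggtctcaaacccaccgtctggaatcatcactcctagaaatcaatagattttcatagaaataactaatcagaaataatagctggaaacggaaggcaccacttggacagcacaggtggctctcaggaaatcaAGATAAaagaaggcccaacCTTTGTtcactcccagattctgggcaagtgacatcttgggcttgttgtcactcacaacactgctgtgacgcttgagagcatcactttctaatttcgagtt
The *Fhit* window held a SOX match 99 bp after the summit and an AP1 match 139 bp after it. The *Spata16* window held a GATA match that began 31 bp after the summit and a reverse-strand SOX match that began 50 bp after it. The *Nol4l* window held none of the motifs. Over their full width the peaks held 6, 0 and 3 SOX matches in the order *Fhit*, *Nol4l* and *Spata16*.

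With the lead intervals included, the 6 windows held 36 H3K27ac peaks at W2 and 16 at D0. Of the 36, 26 were absent at D0 and 7 were lasting gains, whereas 40.1% of all W2 peaks were absent at D0 and 6.08% were lasting gains. The windows were chosen on this contrast, so nothing is read from the excess. For H3K4me1 the windows held 94 intervals at W2 and 92 at D0, of which 43 and 12 of the 94 were absent at D0 and lasting, beside 20% and 5% genome-wide. In the W1 lists 19 of 27 H3K27ac peaks and 18 of 76 H3K4me1 intervals were absent at D0, beside 41.3% and 5.96%, and these share the D0 list with the choice.

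Intervals were also lost. Of the 16 D0 H3K27ac peaks 5 were absent at W2, beside 38.6% genome-wide, and of the 92 D0 H3K4me1 intervals 40 were, beside 32.4%. Of the lost H3K4me1 intervals 31 were in *Fhit*, which had 52 at D0, and *Spidr* lost 1 of 10 and *Tm4sf1* 0 of 4. In 23 of the 40 cases the loss held at W6 and W12 as well, and 19 of those 23 were in *Fhit*. The *Fhit* window thus lost as well as gained intervals, and it had 52, 39, 42, 42 and 36 H3K4me1 intervals from D0 to W12, and the covered share was 6.40%, 6.08%, 6.80%, 5.44% and 5.99%. The change from D0 to W2, 0.397 points, had the opposite sign above the median score, at -0.0935 points, and without flanks, at -0.0496 points.

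*Spidr* had the most lasting H3K27ac gains of the 6, with 3 in its gene body. They lay 154, 162 and 188 kb from the start, with the lead peak in the middle. The peak at 154 kb, 3121 bp wide, had folds of 15.4, 15.4, 9.54 and 4.96 from W1 to W12. The peak at 188 kb had folds of 5.59, 7.72, 4.17 and 5.67. These folds are not corrected for the unequal depth of the lists. All 3 were called at W1. The peak at 188 kb lay within a lasting H3K4me1 gain of 4800 bp, and of the 3 it alone had no H3K4me1 at D0. Across protein-coding windows 88.3% held no lasting H3K27ac gain, and 51 genes had more than *Spidr*. The counts were not scaled to window length, which was 358 kb at *Spidr*.

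The other genes had fewer. *Rpf1* had a further lasting peak with its midpoint at -24.71 kb from the start, that is upstream. It was not called at W1 and had folds of 7.02, 4.77 and 7.08 in the later lists, again not corrected for depth. *Fhit* and *Tm4sf1* each had their lead peak alone, and *Nol4l* and *Spata16* had no lasting H3K27ac gain. For H3K4me1, *Fhit* had 5 lasting gains, which 18 protein-coding windows exceeded, *Nol4l* and *Spidr* had 2 each, and *Tm4sf1*, *Spata16* and *Rpf1* 1 each, while 83.5% of protein-coding windows had none. These counts were not scaled to window length, which was 1712 kb at *Fhit*, 116 kb at *Tm4sf1* and 115 kb at *Rpf1*. In *Fhit* 4 of the 5 lay close together, with midpoints between 1199.5 and 1275.5 kb from the start. Their widths at W2 ran from 2200 to 8200 bp.

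**Figure D3:**
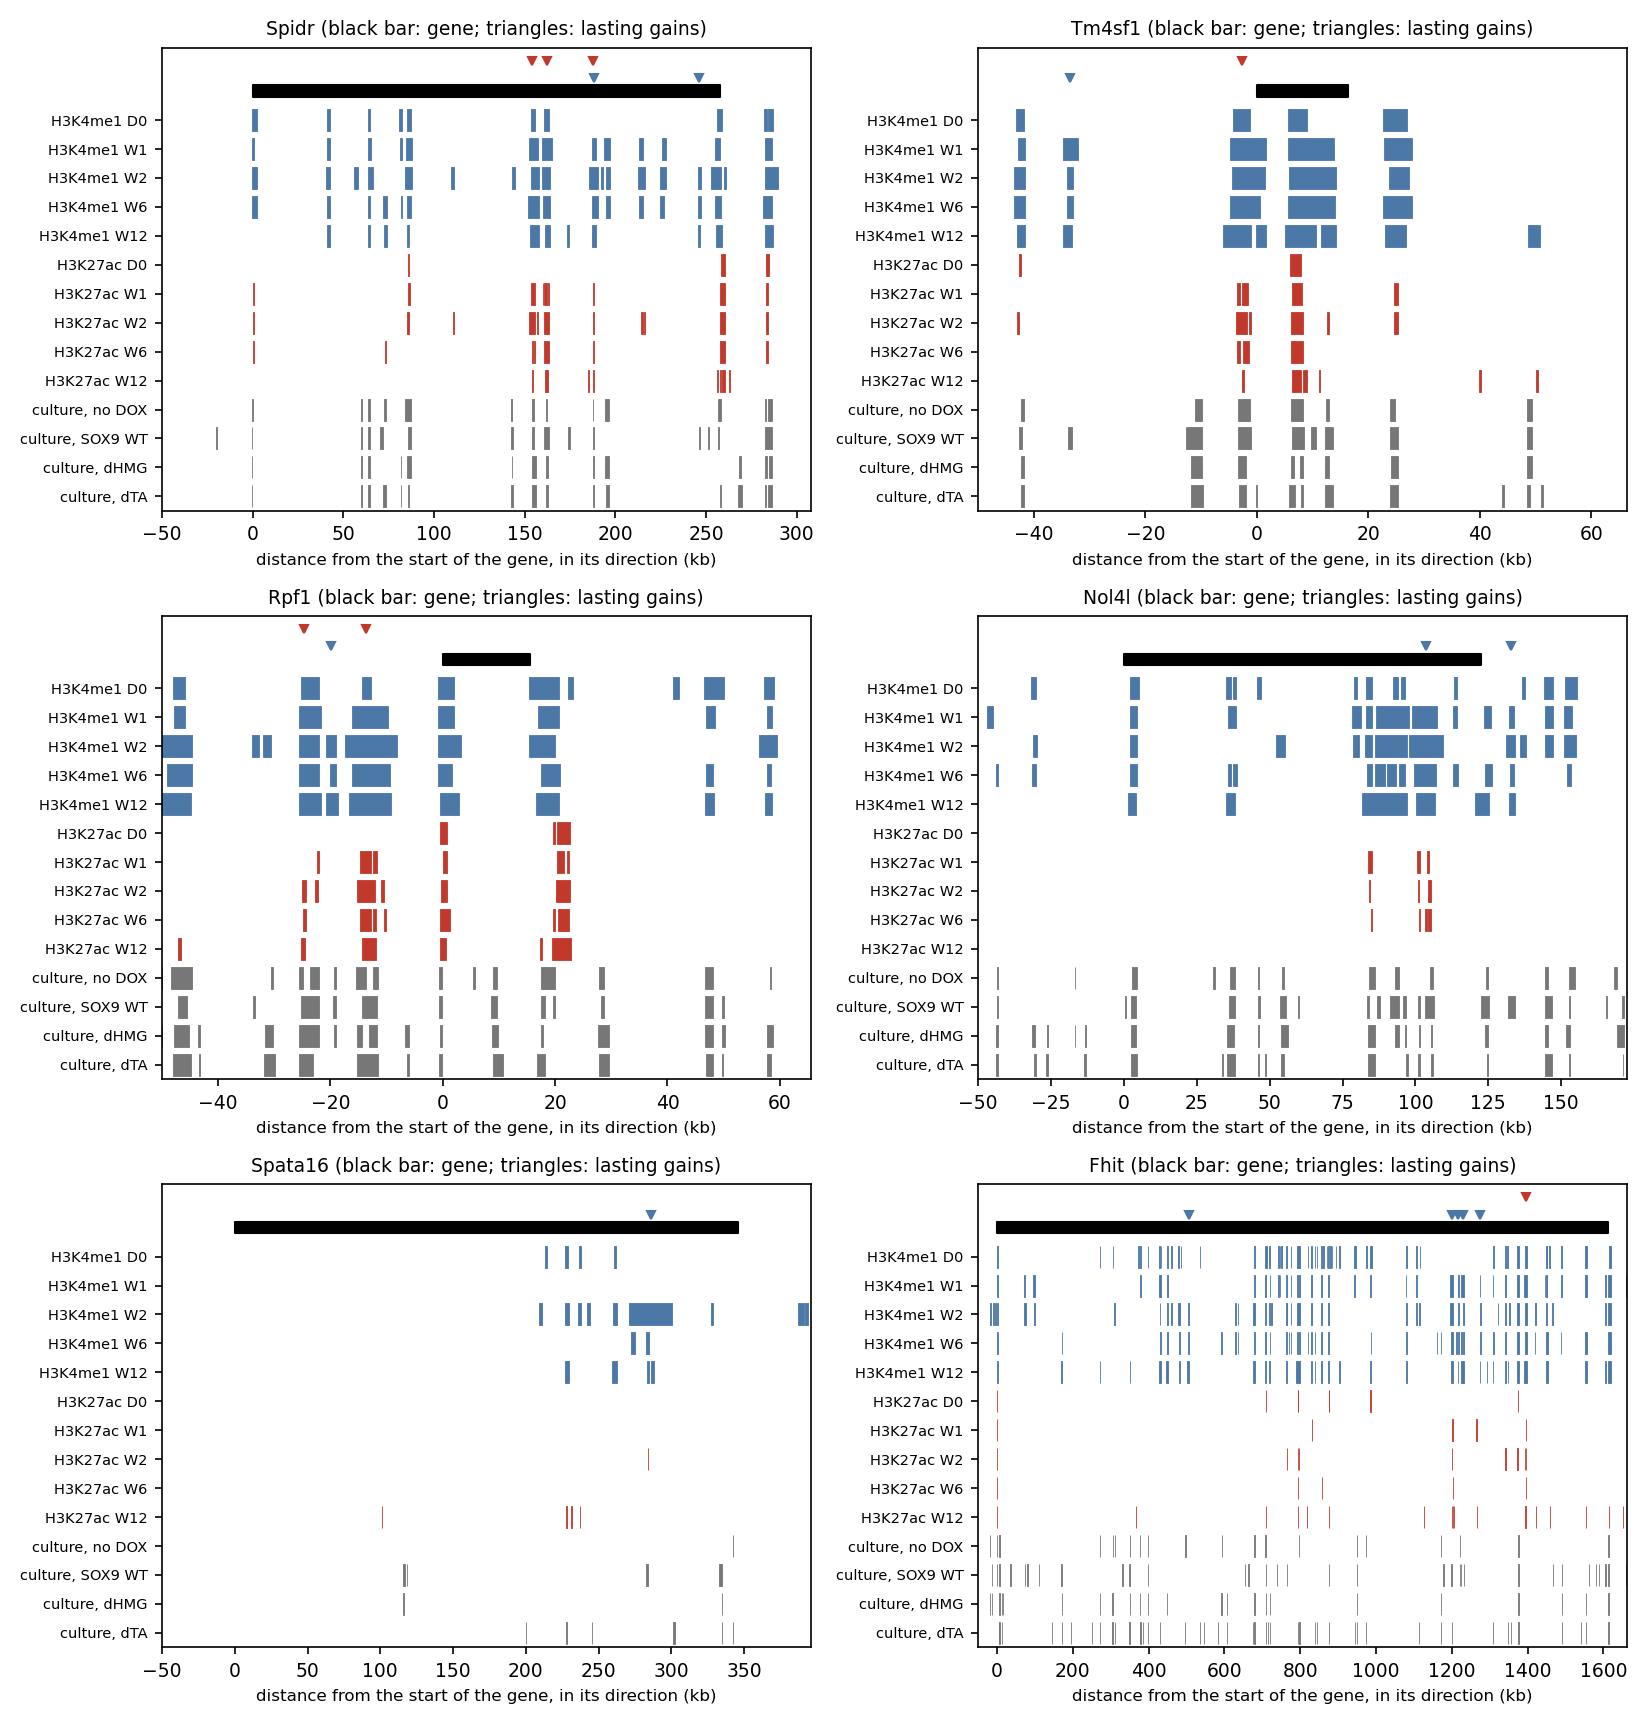
All intervals of the 14 lists in the windows of the 6 genes, by distance from the gene's start in kb in its direction, with H3K4me1 of skin in blue, H3K27ac in red, H3K4me1 of culture in grey and triangles at lasting gains of the mark with the same colour. The cluster of blue triangles between 1199.5 and 1275.5 kb in *Fhit* and the single wide W2 bar in *Spata16* can be seen.

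The covered share of a window put these changes on a common scale. For *Rpf1* H3K27ac covered 3.24%, 4.70%, 7.38%, 6.56% and 7.27% of the window from D0 to W12. For *Tm4sf1* the shares were 2.09%, 3.54%, 5.18%, 3.38% and 2.98%, and for *Spidr* 1.19%, 3.01%, 4.41%, 2.67% and 1.86%. *Nol4l* had none at D0 and W12 and 1.37%, 0.988% and 1.13% between. *Fhit* stayed at or under 0.556% and *Spata16* at or under 0.346% in every list. The median over all 21938 protein-coding windows was between 1.09% and 1.64%.

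For H3K4me1 the shares from D0 to W12 were 19.2%, 18.2%, 29.8%, 20.8% and 25.1% at *Rpf1*. They were 10.5%, 20.3%, 17.9%, 18.9% and 20.6% at *Tm4sf1*, so that the W1 share was close to the highest. At *Nol4l* they were 10.7%, 19.2%, 20.2%, 14.29% and 15.46%, and at *Spidr* 5.59%, 10.1%, 16.2%, 11.3% and 7.27%. *Spata16* had 1.26%, 0%, 10.997%, 1.08% and 2.11%. The median change from D0 to W2 was 9.63 percentage points over the 6 genes and -1.01 over all protein-coding windows. From D0 to W12 it was 3.22 and -1.56. For H3K27ac the medians were 2.04 and 0 points at W2 and 0.508 and -0.124 at W12. With flanks of 10 kb, which leave out the lead peak, the H3K27ac change of *Rpf1* from D0 to W2 was -0.403 points instead of 4.13.

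**Figure D4:**
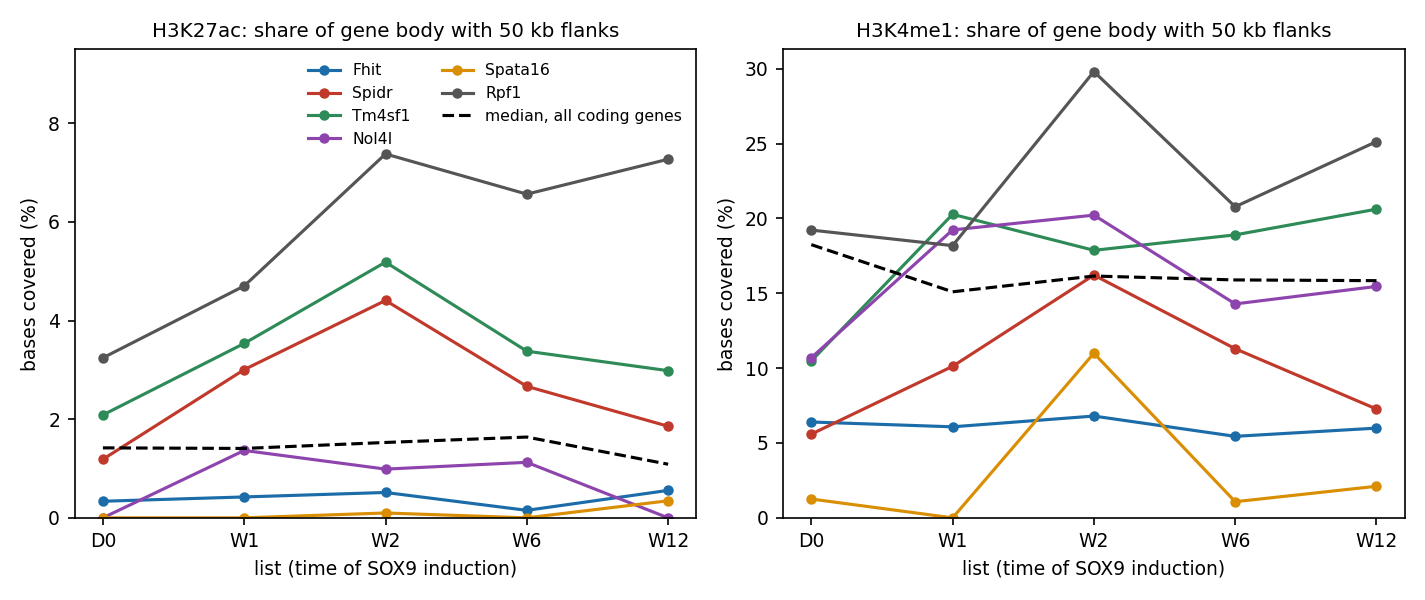
Share of each gene body with 50 kb flanks covered by H3K27ac (left) and H3K4me1 (right), in percent, by list, with the median over all protein-coding windows dashed. *Rpf1* has the highest H3K27ac share in every list, and 4 of the 6 genes are above the dashed line for H3K4me1 at W2.

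The starts of the genes had histories of their own. The annotation gives *Fhit* 4 starts, *Tm4sf1* 3, *Nol4l*, *Spata16* and *Rpf1* 2 each and *Spidr* 1. An H3K27ac peak within 1 kb of at least 1 of them was present in all 5 lists for *Fhit*, *Tm4sf1* and *Rpf1*, and 36.2% to 48.4% of all protein-coding genes had one in a list. At *Rpf1* both starts, which lie close together, had the peak, and at *Fhit* 2 or 3 of the 4 did, the outermost included. At *Tm4sf1* the marked start was in every list the one 7.10 kb inside the gene, and the outer 2 had no H3K27ac peak in any skin list. The *Rpf1* starts had their highest fold at D0, with 29.3, and 18.5, 14.03, 17.3 and 12.04 in the later lists. At *Tm4sf1* the best folds were 9.33, 8.47, 14.7, 8.95 and 10.6, and at *Fhit* 9.996, 6.93, 9.12, 8.35 and 4.96. The folds in this paragraph come from lists of unlike depth and are not on one scale. No rise or fall between lists is read from them. The *Spidr* start had no peak at D0 or W12 and folds of 7.70, 7.72 and 5.96 between. At *Nol4l* the start 85.5 kb inside the gene had a peak at W1 and W6 only, with folds of 6.16 and 8.95, and the outermost start had neither mark in any skin list. The *Spata16* starts had neither mark in any skin or culture list, while its gene body held the 29400 bp domain at W2.

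H3K4me1 lay within 1 kb of at least 1 annotated start of the other 5 genes in all skin lists, except at *Spidr* at W12. At *Nol4l* this was the internal start alone. At *Fhit* it was 3 of the 4 starts in every list and at *Rpf1* both. At *Tm4sf1* it was the internal start alone at D0 and all 3 in the later lists. The widest interval near a *Tm4sf1* start measured 3400, 8200, 8400, 8400 and 5600 bp from D0 to W12.

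Protein-coding neighbours with a start in a window were few. *Cebpd*, which encodes the transcription factor C/EBPδ and begins just beyond the 3′ end of *Spidr* and overlaps its last exon on the opposite strand, had an H3K27ac peak at its start in all 5 lists, and *Mzt2*, a gene of the γ-tubulin complex, in all but W12. In the *Rpf1* window, *Gng5* and *Spata1* had one in all 5 lists and *Uox*, the urate oxidase gene, in none. In the *Nol4l* window *4930404H24Rik* had none. *Fhit*, *Tm4sf1* and *Spata16* had no such neighbour.

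The culture lists were not used to choose the genes. They hold H3K4me1 after SOX9 induction in EpdSCs, as the choice did, so an excess of new intervals is not independent support. The 6 windows held 70 H3K4me1 intervals without DOX, 91 with WT SOX9, 80 with ΔHMG and 107 with ΔTA. Of these, 44 of 91 with WT SOX9 were absent without DOX, beside 29.1% genome-wide, 21 of 80 with ΔHMG, beside 19.3%, and 49 of 107 with ΔTA, beside 25.8%. The 3 comparisons share the single list without DOX, and no test is possible with 1 list per condition. *Fhit* supplied 23, 9 and 28 of these new intervals, and without it the counts were 21 of 59, 12 of 57 and 21 of 63. Those are 35.6%, 21.1% and 33.3%, closer to the genome-wide shares. *Nol4l* had 14 intervals and 7.01% coverage without DOX, 19 and 11.6% with WT SOX9, 18 and 9.34% with ΔHMG and 18 and 7.95% with ΔTA. *Tm4sf1* was covered to 7.46% without DOX, 11.7% with WT SOX9, 6.90% with ΔHMG and 8.65% with ΔTA. *Rpf1* went the other way, with 13.8% without DOX, 11.3% with WT SOX9, 15.9% with ΔHMG and 17.2% with ΔTA.

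The lead intervals met these lists in different ways. The H3K27ac lead peaks at *Spidr*, *Rpf1* and *Tm4sf1* overlapped H3K4me1 of culture in all 4 conditions, without DOX included. The *Fhit* peak overlapped none of the 4. Genome-wide 72.2% of lasting H3K27ac gains overlapped an interval without DOX, 82.3% with WT SOX9, 69.2% with ΔHMG and 72.2% with ΔTA. No lead peak was found with WT SOX9 and not without DOX, beside 13.7%. The lead peaks were 1722 to 3136 bp wide and the median lasting gain 933 bp. These shares are thus not from peaks of like width. At *Spidr* the culture interval over the lead peak covered 26.4% of it without DOX, 90.8% with WT SOX9, 39.3% with ΔHMG and 47.5% with ΔTA, while the fold of the best ranked interval over it was 5.57 without DOX and 4.32 with WT SOX9. At *Rpf1* 59.9%, 75.9%, 65.8% and 100% of the peak were covered in the same order, and at *Tm4sf1* 80.3%, 84.1%, 76.0% and 70.7%.

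All 3 H3K4me1 lead intervals overlapped an interval of cells with WT SOX9, while 1 of 3 did without DOX and 1 of 3 with ΔHMG, *Nol4l* each time. With ΔTA 2 of 3 did, and *Spata16* was the exception. Over all lasting H3K4me1 gains the shares were 70.9% with WT SOX9, 47.9% without DOX, 49.9% with ΔHMG and 53% with ΔTA, and 27.9% were found with WT SOX9 and not without DOX, as were *Fhit* and *Spata16*. All lead intervals were wider than the lasting median of 2400 bp. Here too the shares are not from intervals of like width. The *Fhit* interval with WT SOX9 was 2775 bp wide with a fold of 3.10, and that with ΔTA 1475 bp wide with a fold of 2.84, at 94.1% of its list by rank. The *Spata16* interval with WT SOX9 was 1390 bp wide with a fold of 4.50 and lay over the small W2 H3K27ac peak of the 29400 bp domain. In *Nol4l* the covered part of the lead interval was 9.30% without DOX, 29.6% with WT SOX9, 9.58% with ΔHMG and 10.4% with ΔTA.

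The lasting gains of the windows that were not lead intervals were set against the same lists. The 3 further H3K27ac gains were in all 4 culture lists, each of which held between 69.2% and 82.3% of all lasting H3K27ac gains. Of the 9 further H3K4me1 gains 6 were found with WT SOX9, 2 without DOX, 2 with ΔHMG and 1 with ΔTA. Over all lasting H3K4me1 gains the shares were 70.9%, 47.9%, 49.9% and 53% in the same order. Altogether 6 of the 12 lasting H3K4me1 gains of the windows were found with WT SOX9 and neither without DOX nor with ΔHMG, beside 22.5% genome-wide, and 0 of the 7 lasting H3K27ac gains were, beside 10.9%. Of these 6, 2 were lead intervals, which were wider than the lasting median of 2400 bp. The lead interval in *Fhit* was also found with ΔTA. The shares are thus not from intervals of like width, and nothing is read from the excess.

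**Figure D5:**
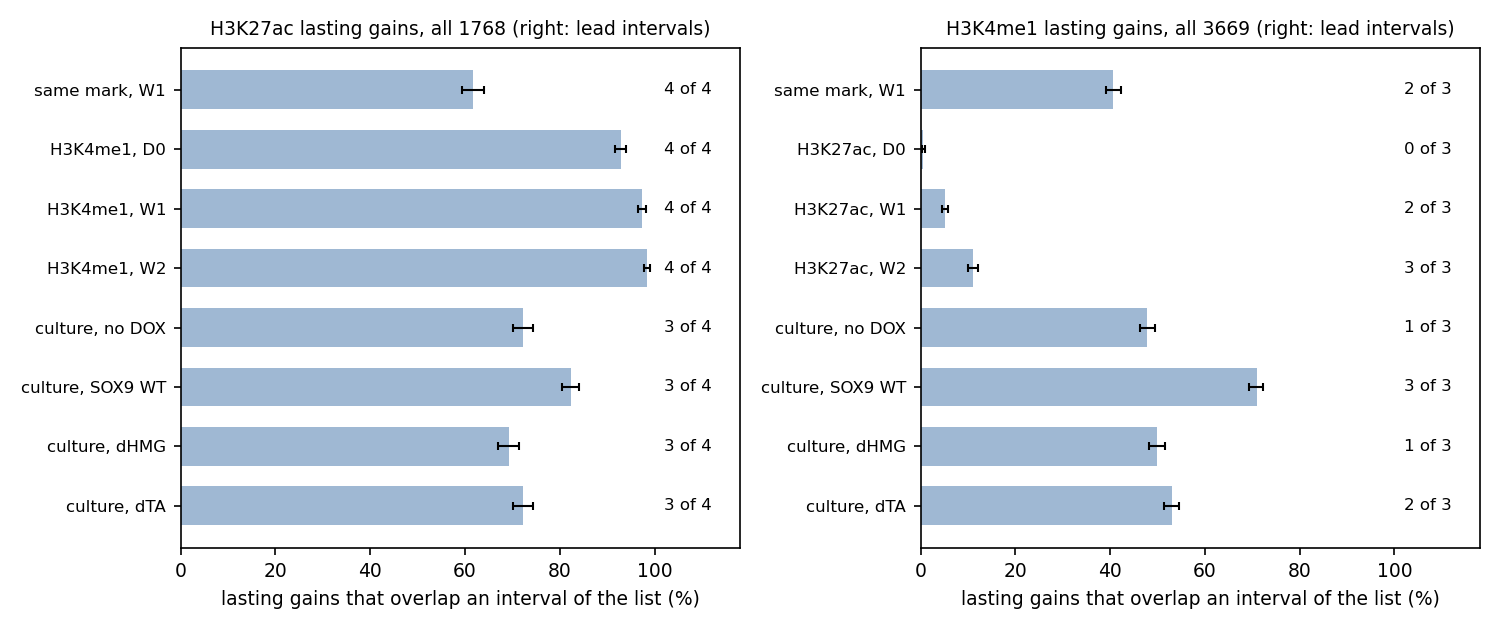
Share of all lasting gains of H3K27ac (left) and H3K4me1 (right) that overlapped an interval of each further list, in percent with exact 95% intervals for counting error, and at the right edge the count of lead intervals that did. In the culture lists the H3K4me1 gains range from 47.9% without DOX to 70.9% with WT SOX9, and 3 of the 3 lead intervals were found with WT SOX9.

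Relatives and partners of the 6 genes were taken from a list of family members, protein partners and other very long genes. Having no lasting gain is the usual state: 88.3% of all protein-coding windows held none of H3K27ac and 83.5% none of H3K4me1. The absences below are thus not read as setting the 6 genes apart from their relatives. None of the 4 L6 family genes *Tm4sf4*, *Tm4sf5*, *Tm4sf19* and *Tm4sf20* had a lasting H3K27ac gain in its window, and *Tm4sf4* had 1 lasting H3K4me1 gain. The Brix domain genes *Rpf2*, *Brix1*, *Ppan* and *Imp4* had none of either mark, and neither had *Nol4*, whose window carried no H3K27ac at D0 or W2. None was found at *Hint1*, another histidine triad gene, nor at *Blm* and *Fignl1*, which act with the SPIDR protein, and *Nit1*, whose product is fused to FHIT in invertebrates, had 1 lasting H3K4me1 gain. Among 8 other very long genes, lasting H3K4me1 gains numbered 4 at *Auts2*, 3 at *Macrod2*, 3 at *Magi2*, 1 at *Wwox* and 0 at *Immp2l*, *Lrp1b*, *Ctnna3* and *Dlg2*, beside 5 at *Fhit*. *Ctnna3* had the single lasting H3K27ac gain of the 8.

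By the course of the covered share over the 5 skin lists, other genes came close to each of the 6. For H3K27ac, *Spidr* was nearest to *Pdhx*, *Tcf7l1* and *Tlr8*, with mean absolute differences of 0.261, 0.2998 and 0.303 percentage points over the 5 lists. *Tm4sf1* was nearest to *Spin1*, *Sptb* and *Ppp3ca* at 0.207, 0.237 and 0.270 points, and *Rpf1* to *Pttg1ip*, *Noct* and *Txndc8* at 0.582, 0.645 and 0.709 points. For H3K4me1, *Fhit* was nearest to *B3glct*, *Phf14* and *Smarca5*, at 0.157 to 0.296 points. For the same mark, *Nol4l* was nearest to *Evx2*, *Crlf3* and *Adcy10* at 0.749, 1.36 and 1.46 points. *Spata16* was nearest to *Cyp2e1*, *Pcp4* and *Ermn* at 0.751, 0.804 and 0.838 points. The matching used the W2 share, so a highest share at W2 in these 3 follows from it. They had 10.2%, 11.6% and 9.28% covered at W2 and at most 2.66% in any other list.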

How the data were processed

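The authors demultiplexed the MINT-ChIP reads, trimmed them with Skewer, used Bowtie2 for alignment to mm10 (GRCm38) and Picard against duplicates, merged replicates with SAMtools and called H3K27ac with MACS2 and H3K4me1 with epic2. The submitters' processing notes name Bowtie2 2.2.9, MACS2 2.1.1 and SAMtools 1.9. Caller settings are not given in the sources used here. The name of the W12 H3K27ac list alone carries a threshold label, so that its calling may have differed, although the largest q-value of the 5 H3K27ac lists ranged from 0.0409 to 0.0498 and was 0.0428 at W12. The culture lists have the layout of MACS2 broad peaks. The deposited H3K4me1 lists of skin hold a p-value for each interval. The deposited H3K27ac and culture lists hold a whole-number score, a fold enrichment (ratio to local background) and, as −log10, a p- and a q-value.

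Intervals on 21 chromosomes were used, with positions counted from 1. H3K4me1 of skin was ranked by p-value and then width, the other lists by score, width and position. Overlap meant at least 1 bp, a start was covered within 1 kb on each side, and genes came from GENCODE M21. Since MACS2 adds 1 to pileup and background before division, folds gave the fragments at a summit, and between 82.3% and 95.9% of the H3K27ac folds of a list fell on such whole steps (tolerance 0.002). Poisson intervals on these fragments cover counting error only and are optimistic, as a summit is a maximum. Each list pools replicates, so that values were compared without a test. The genes and lists were chosen with earlier results of these data known. Named besides them were the 3 protein-coding genes nearest in covered share to each gene (for *Fhit*, in each mark), genes with a start in a window, and chosen relatives, of which some are not reported here. The culture conditions were read from the list names. Python 3.11.15, pandas 2.3.3, numpy 2.4.6 and scipy 1.17.1 were used, and the counting steps were tested on simulated data. Total H3 and 14 barcode files were not used here.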

Additional observations from a re-analysis of the deposited data

How the results depend on the processing

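Other settings were a required overlap of 50% (of the shorter interval), only the better-scored part of each list above its median, joining of intervals less than 1000 bp apart, flanks of 10 kb or none, and lists shortened to the shortest of their mark. Of 108 recomputed counts of intervals, 93 stayed within 1.5 times the reported count. Above the median score, the windows held 13 gained H3K27ac peaks instead of 26, 3 lasting ones instead of 7, 1 lost D0 peak instead of 5 and 1 lost for good instead of 2. Likewise 20 H3K4me1 intervals were gained instead of 43, 16 were lost instead of 40 and 13 were lost for good instead of 23. Of the H3K27ac lead peaks 2 instead of 4 then had H3K4me1 at D0, and 0 H3K4me1 lead intervals were found without DOX, with ΔHMG or with ΔTA, instead of 1, 1 and 2. Without flanks 4 H3K27ac gains were lasting. With joined intervals 3 D0 H3K27ac peaks were lost and 1 for good. With shortened lists 1 H3K4me1 lead interval was found with ΔTA. Of 72 recomputed differences in covered share, 55 stayed within 1.5 times and 3 changed sign: *Rpf1* H3K27ac was -0.403 points with flanks of 10 kb, and *Fhit* H3K4me1, reported as 0.397 points, was -0.0935 above the median score and -0.0496 without flanks. Of those that moved, *Tm4sf1* H3K4me1, reported as 7.39 points, was 18.1 with flanks of 10 kb and 39 without flanks, and its H3K27ac change was 10.09 with flanks of 10 kb instead of 3.10. Of 40 recomputed genome shares 16 stayed within their intervals, and the H3K27ac share with WT SOX9 was 62.8% above the median score instead of 82.3%. The cause was not tested, except that the *Rpf1* lead peak lies outside flanks of 10 kb. No paired analysis was possible because each list pools its replicates, and leaving out a replicate could not be run for the same reason.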
